A study of Danio rerio with 6 samples.

Results

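Immediate early transcription factors are represented here by 10 genes, chosen by symbol: the Fos family genes fosab, fosb and fosl1a, the Jun family genes junba, junbb and jun, the zinc finger genes egr1 and egr2b, the Myc family gene mych and the stress-responsive gene atf3. All 10 were found among the 23745 genes of the table. RNA sequencing was run on FAC-sorted hepatocytes of zebrafish larvae aged 6 days post fertilisation, 2000 cells to a sample, in a study of early liver fat accumulation. The 3 lcat OE samples came from Tg(fabp10a:lcat-T2A-mCherry; fabp10a:eGFP) larvae, in which a liver promoter drives lcat, the gene for the secreted enzyme lecithin-cholesterol acyltransferase, joined to a red reporter, together with the green reporter. The 3 CTL samples came from Tg(fabp10a:eGFP) larvae, which carry the green reporter alone, so the red reporter is present in lcat OE samples and absent from CTL samples. The labels give neither the dissociation and sorting times nor whether replicates came from separate clutches. Differences in handling, in fish line, in the red reporter and in lcat therefore cannot be told apart, and the p-values cover only the spread among these libraries, part or all of which may be technical.

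Immediate early genes are transcribed within minutes of a stimulus, without new protein synthesis, when kinase cascades reach factors such as serum response factor and Creb that already sit on their promoters. Fos and Jun proteins pair through leucine zippers to form AP-1, Egr proteins bind GC-rich sites through zinc fingers, and Atf3 and Myc proteins join the same early programme. In liver these genes are known for their rise after injury, partial hepatectomy and growth factor exposure, and enzymatic dissociation of a tissue is known to raise them in the isolated cells.

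Libraries held 23336591 to 24890856 counts. The overexpressed gene lcat had 1958 to 3255 CPM (counts scaled to library size) in lcat OE libraries and 119.9 to 148.7 CPM in CTL libraries, with reads of transgene and endogenous gene in 1 value. The sorted cells carried hepatocyte RNA in both groups: 25 hepatocyte markers held 32.3% to 33.1% of counts in lcat OE and 27.5% to 28.8% in CTL. Of 14096 genes tested with edgeR's quasi-likelihood test, 16.3% were lower in lcat OE at an adjusted p under 0.05 and 16.3% were higher.

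All 10 immediate early factors fell in lcat OE, against 16.3% of all genes tested. As the 10 genes and the lists below were chosen with earlier results of these data known, such shares are a description, not a test. Among the 4245 genes that averaged 10 CPM or more, as 9 of the 10 do in both groups, 18.1% were lower. The fall was 2-fold or more for 8 of the 10, where 8.97% of all tested genes and 5.58% of those of 10 CPM or more fell that far, and the members' median log2 fold change was -1.27, beside -0.02 for all genes tested. For every member, each lcat OE library lay below each CTL library, on CPM, on deposited TPM and FPKM, and on CPM without TMM factors. Such a separation downwards was seen in 24.1% of tested genes on CPM, 33.1% on TPM, 28.2% on FPKM and 28.9% on CPM without TMM factors. On TPM, which is scaled by transcript length, the 10 genes summed to 1895, 1617 and 1826 in lcat OE libraries, against 3682, 4340 and 3933 in CTL libraries, so the mean sum in lcat OE was 0.447 of that in CTL.

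**Figure D1:**
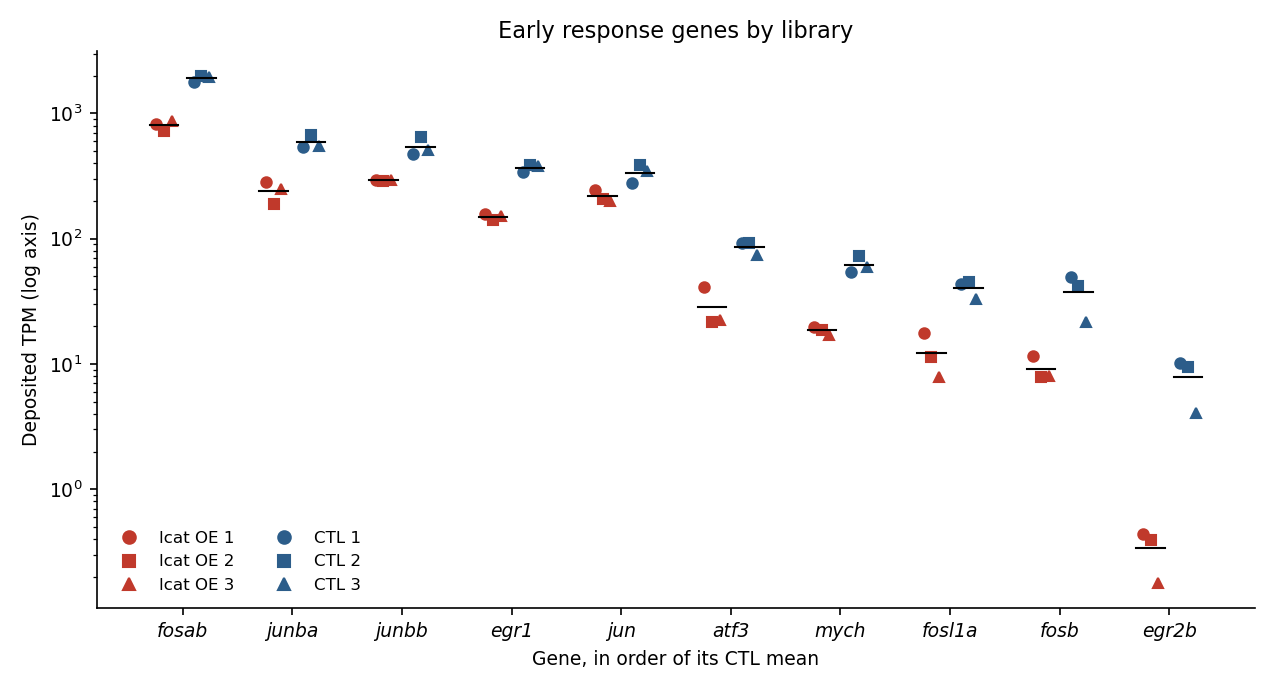
Deposited TPM (log axis) of the 10 immediate early factors in each of the 3 lcat OE (red) and 3 CTL (blue) libraries, marked by replicate, with black lines at the group means. Every red point of a gene lies below all of its blue points, and fosab is the highest gene in both groups.

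The Fos family held both the most abundant member and some of the larger falls. The gene fosab encodes the zebrafish counterpart of c-Fos, the partner that gives AP-1 its short-lived activity. It had 827, 728 and 876 TPM in lcat OE libraries, against 1797, 1989 and 1953 TPM in CTL libraries. The CTL libraries were close to one another and none came near the lcat OE range. On mean TPM, fosab stood 162nd among all genes in lcat OE and 88th in CTL. By edgeR fosab was at -1.04 on the log2 scale (SE 0.13, adjusted p = 0.00029), with 1538 ± 273 CPM in lcat OE and 3172 ± 51.9 CPM in CTL (SD, n = 3 each). In the RefSeq gene table of assembly GRCz12tu, a build other than the one named by the submitters, fosab overlaps si:ch211-153j24.3, which had 11 to 15 counts in lcat OE libraries and 36 to 92 counts in CTL libraries. No strand-specific step is stated, so reads from such an overlap could not be told apart.

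The gene fosb encodes another Fos protein. It had 11.5, 7.89 and 8.02 TPM in lcat OE libraries, against 49.4, 42.1 and 21.6 TPM in CTL libraries. CTL 3 was well under the other CTL libraries and still above every lcat OE library. Thus fosb fell by 1.87 on the log2 scale (SE 0.28, adjusted p = 0.00229 by edgeR). The third Fos gene, fosl1a, encodes Fra1, a Fos protein known for its part in migrating and invasive cells. It had 17.6, 11.4 and 7.86 TPM in lcat OE libraries, against 43.9, 45.3 and 33.0 TPM in CTL libraries. Within lcat OE its coefficient of variation was 40.3%, the groups did not overlap, and fosl1a fell by 1.59 on the log2 scale (SE 0.23, adjusted p = 0.00157 by edgeR).

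The Jun genes jun and junbb had the smallest falls of the 10. Jun proteins supply the obligate side of AP-1, since Fos proteins cannot pair with themselves. The gene jun had 246, 209 and 202 TPM in lcat OE libraries, against 280, 386 and 345 TPM in CTL libraries. Here the groups nearly met, with CTL 1 only 1.14 times the highest lcat OE library. The fall, by 0.44 on the log2 scale (SE 0.12, adjusted p = 0.0183 by edgeR), was the smallest of the 10. The call did not hold without CTL 2 (adjusted p = 0.093), without CTL 3 (0.0666), without lcat OE 2 (0.0716) or with replicate number as a term (0.0568). Over its 19 alternatives the adjusted p of jun lay between 0.00341 and 0.093, and the direction was down in each.

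The junb pair arose by the fish genome duplication and encodes JunB, which often restrains the activity of c-Jun. The gene junba had 282, 190 and 248 TPM in lcat OE libraries, against 543, 668 and 555 TPM in CTL libraries, and was 2.14-fold lower in lcat OE by edgeR (adjusted p = 0.000528). Its copy junbb had 294, 289 and 294 TPM in lcat OE libraries, against 472, 647 and 511 TPM in CTL libraries. The lcat OE libraries were almost level on TPM but had 501, 516 and 607 CPM. By edgeR junbb was at -0.70 (SE 0.13, adjusted p = 0.0024), also with no overlap of libraries. The order of the pair differed between the groups. In every lcat OE library junbb was above junba, with ratios of 1.04, 1.53 and 1.19, and in every CTL library it was below, with ratios of 0.869, 0.968 and 0.921. The ratios did not overlap. With 3 against 3 libraries an exact permutation test of such a ratio cannot go below p = 0.1 (two-sided), so it was not called, and ratios that do not overlap are common among gene pairs of these libraries (58.9% of pairs of genes of 10 CPM or more).

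**Figure D2:**
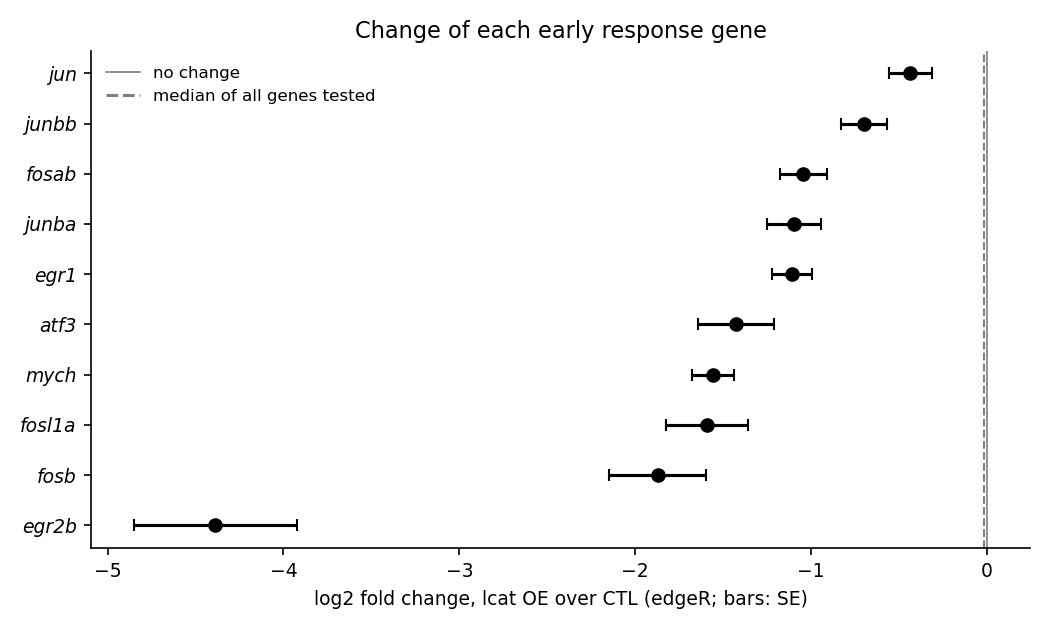
The log2 fold change of each immediate early factor, lcat OE over CTL, with its standard error (horizontal axis, edgeR), from the smallest fall at the top to the largest at the bottom. All 10 lie left of no change, from -0.44 for jun to -4.39 for egr2b, while the median of all genes tested is at -0.02.

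The zinc finger gene egr1 encodes a factor that follows serum response factor closely and in mammalian liver is known from regeneration and from cholesterol gene control. It had 157, 141 and 151 TPM in lcat OE libraries, against 340, 389 and 377 TPM in CTL libraries. On TPM both groups were tight, and the lowest CTL library was 2.17 times the highest lcat OE library. The fall of egr1 was by 1.11 on the log2 scale (SE 0.12, adjusted p = 8.06e-05 by edgeR).

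The largest fall was in egr2b, known as krox20, which is best known from the hindbrain and from myelinating glia and is also an early response gene. It had 23, 22 and 10 counts in lcat OE libraries, against 519, 461 and 202 counts in CTL libraries. In TPM these were 0.44, 0.39 and 0.18 in lcat OE and 10.2, 9.38 and 4.05 in CTL. The lowest CTL library was 9.21 times the highest lcat OE library, and replicate 3 was the lowest of its group on both sides. By edgeR the change was -4.39 on the log2 scale (SE 0.46, adjusted p = 0.000685), or 20.9-fold lower. On the log2(TPM + 1) and log2(FPKM + 1) scales, which understate the change of low genes, egr2b was at -2.65 and -2.76 by limma. It was the only member under the level of the filter on low counts in any library, reaching that level in 5 of 6 libraries, so it entered the test through its CTL level. Neural and retinal markers moved the same way: 14 of 19 tested fell, 1 of them the rod opsin gene rho, and their summed TPM was 5.75 to 10.03 in lcat OE and 53.2 to 83.4 in CTL, with no marker at 0 in all libraries of a group. Their part in the egr2b value was not tested, and for this as for every member fewer cells of a type and less RNA per cell cannot be told apart.

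The gene mych encodes a fish Myc protein of the family that drives growth and ribosome production. It had 19.7, 18.8 and 17.1 TPM in lcat OE libraries, against 54.5, 72.8 and 59.3 TPM in CTL libraries. The lcat OE libraries were almost level, and the groups were 2.76-fold apart at their nearest. It fell by 1.56 on the log2 scale (SE 0.12), with the smallest adjusted p of the 10, 1.14e-05 by edgeR. The gene atf3 encodes a bZIP protein that amino acid shortage, endoplasmic reticulum stress and wounding are known to raise. It had 41.2, 21.7 and 22.3 TPM in lcat OE libraries, against 91.7, 91.6 and 73.9 TPM in CTL libraries. Library lcat OE 1 lay between the rest of its group and CTL 3. By edgeR atf3 fell by 1.43 on the log2 scale (SE 0.22, adjusted p = 0.00167). Without CTL 1 and lcat OE 3 together, atf3 missed the threshold (adjusted p = 0.0739, within 2.5e-09 to 0.0739 over 19 alternatives).

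The order of the levels was nearly the same in the groups. In lcat OE it ran, on mean TPM, fosab, junbb, junba, jun, egr1, atf3, mych, fosl1a, fosb and egr2b. In CTL it ran fosab, junba, junbb, egr1, jun, atf3, mych, fosl1a, fosb and egr2b. Neighbours whose ranges over libraries overlapped were junba and jun, mych and fosl1a, and fosl1a and fosb in lcat OE. In CTL they were junba and junbb, egr1 and jun, and fosl1a and fosb. Within lcat OE, library 1 had the highest TPM of its group for 8 of the 10 genes. Within CTL, library 2 was highest on TPM for 7 of the 10 and library 1 was lowest for 6. These counts depend on the scale. On CPM, lcat OE 3 was the highest of its group for fosab, junba, junbb, egr1 and mych. In CTL on CPM, fosab was highest in CTL 3 and fosl1a in CTL 1, and junba was lowest in CTL 3. No share over all genes is given, so the counts are a description.

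The ratio between members overlapped between the groups for some pairs and not for others. The ratio of fosab to egr1 TPM was 5.27, 5.16 and 5.78 in lcat OE libraries, against 5.29, 5.12 and 5.18 in CTL libraries, so the groups overlapped although both genes fell. The ratio of fosab to jun was 3.37, 3.49 and 4.34 in lcat OE libraries, against 6.43, 5.15 and 5.66 in CTL libraries, with no overlap. The ratio of mych to egr1 was 0.126, 0.133 and 0.113 in lcat OE libraries, against 0.16, 0.187 and 0.157 in CTL libraries, again with no overlap. Of the 45 pairs of members, the ratio did not overlap between the groups for 27, or 60.0%. The share was 58.9% over all pairs of tested genes that averaged 10 CPM or more and had TPM above 0 in every library. That set leaves out egr2b, which averaged 0.765 CPM in lcat OE and 16.3 CPM in CTL. No ratio with egr2b overlapped between the groups, so without egr2b the members' share is below 60.0%. The 2 shares thus cover unlike sets, and the ratios are given as a description.

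**Figure D3:**
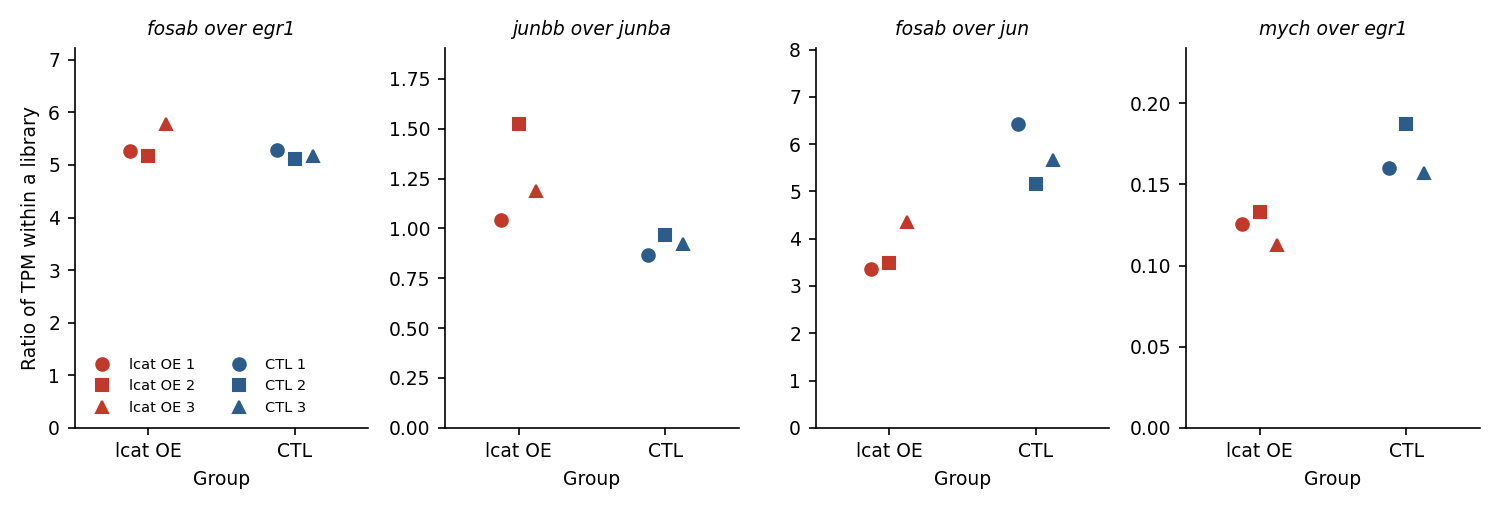
Ratios of TPM between pairs of immediate early factors within each library (vertical axes start at 0), with lcat OE libraries in red left of CTL libraries in blue. The fosab over egr1 ratio overlaps between the groups, while junbb over junba is higher in lcat OE and fosab over jun and mych over egr1 are lower.

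Other genes of the AP-1 family moved as the 10 did in most cases. Of 21 matched genes 15 were tested, 10 fell (66.7%, against 16.3% of all genes tested) and 1 rose, with a median log2 fold change of -1.10. Those with the smallest p were batf2, mafk, jund and atf4b. The Batf family gene batf2 averaged 0.908 CPM in lcat OE and 10.6 CPM in CTL (log2 fold change -3.55, SE 0.28). The gene jund, usually the steadier Jun, fell by 1.13 on the log2 scale (SE 0.16). The small Maf gene mafk was at -1.10 (SE 0.14) and atf4b, a copy of the central amino acid stress factor, at -1.25 (SE 0.18). Chosen after their values were seen, the fosab copy fosaa averaged 1.97 TPM in lcat OE and 5.33 TPM in CTL (log2 fold change -1.27, SE 0.23), and atf5b was the gene that rose (log2 fold change 0.52, SE 0.11).

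A list of other early response factors, mostly of the Egr, Nr4a, Klf, Myc and Ier families with some Csrnp, Npas4, Cebp and Her genes, went both ways. Of 33 matched genes 28 were tested, 13 fell (46.4%) and 6 rose (21.4%, beside 16.3% of all genes for either direction), with a median of -0.40. The orphan receptor gene nr4a3 had 7.12 to 8.48 TPM in lcat OE libraries and 23.6 to 30.0 TPM in CTL libraries (log2 fold change -1.57, SE 0.13). The egr2b copy egr2a stayed far above egr2b, at 43.1 to 66.9 TPM in lcat OE libraries and 142 to 192 TPM in CTL libraries (-1.58, SE 0.17), and ier2a had 96.5 to 128 TPM in lcat OE libraries and 302 to 383 TPM in CTL libraries. The smallest p belonged to a gene that rose, klf5l, with 3.92 to 7.11 TPM in lcat OE libraries and 0.29 to 0.48 TPM in CTL libraries (log2 fold change 3.93, SE 0.24). Among the others that rose, named after their values were seen, were klf2b (3.51, SE 0.37), klf4 (2.40, SE 0.35) and mycn (2.25, SE 0.28). Of 21 tested epidermal markers 17 rose (81.0%) and 1 fell (4.76%) in the same libraries, beside 16.3% of all genes for either direction. Their summed TPM was 5432 to 9274 in lcat OE and 485 to 842 in CTL. The keratin gene cyt1 had 1673 to 2785 TPM in lcat OE and 40.8 to 98.0 TPM in CTL. No epidermal marker was at 0 in all libraries of a group, and the part of these cells in the Klf and mycn values was not tested.

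Early genes that feed back on signalling more often fell than rose. All 36 matched genes were tested, 18 fell (50.0%) and 2 rose, with a median of -0.59; 1 rose without CTL 1, CTL 2, CTL 3, lcat OE 1 or lcat OE 2. The kinase gene pim1 averaged 73.1 CPM in lcat OE and 226 CPM in CTL (log2 fold change -1.63, SE 0.14). The growth arrest genes gadd45ga (-1.67, SE 0.15) and gadd45ba (-1.31, SE 0.13) and the receptor signalling inhibitor spry2 (-1.95, SE 0.20) fell as well. Named after its value was seen, the phosphatase gene dusp1 did not pass. It had 56.9 to 69.2 TPM in lcat OE libraries and 59.9 to 85.6 TPM in CTL libraries (log2 fold change -0.09, SE 0.14, adjusted p = 0.674 by edgeR). Dissociation is known to raise dusp1 as well as the 10 factors, which all fell, and the part of handling was not tested.

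For the kinases and factors upstream of these promoters the median was nearer to no change. Of 31 matched genes 27 were tested, 8 fell (29.6%) and 1 rose, with a median of -0.32. The kinase gene mapk8b (-0.92, SE 0.14), the Creb coactivator gene crtc2 (-1.07, SE 0.23) and the serum response factor partner elk3 (-0.93, SE 0.23) fell. The number that fell was 4 without lcat OE 2 and 5 without CTL 1, and 0 rose without CTL 1, CTL 3, lcat OE 1 or lcat OE 2. Of 30 matched genes known from other work as AP-1 or Egr1 targets 24 were tested, 9 fell (37.5%) and 1 rose, with a median of -0.75. Among those that fell were the growth factor gene hbegfa (-1.89, SE 0.20), the keratin gene krt18a.1 (-1.24, SE 0.15) and ccn1 (-1.46, SE 0.21).

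**Figure D4:**
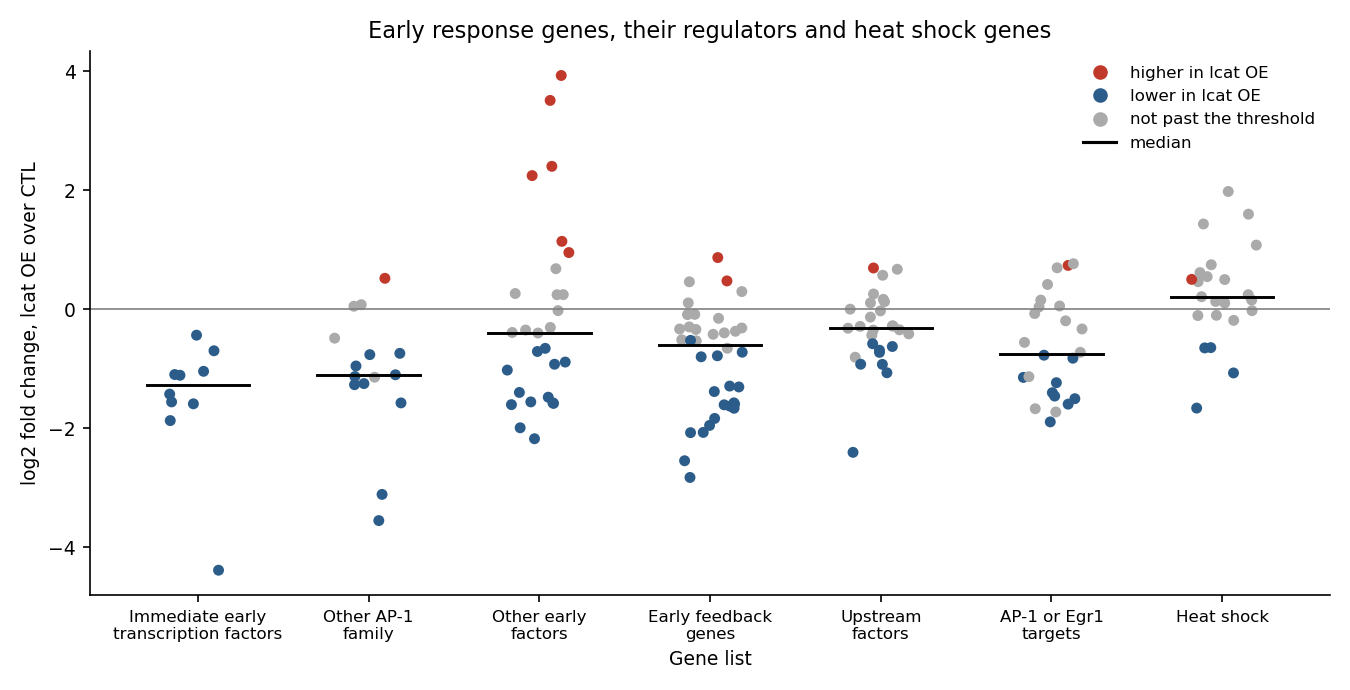
The log2 fold change (vertical axis, lcat OE over CTL, edgeR) of each tested gene in 7 lists, coloured by whether it was higher, lower or not past the threshold, with black lines at the list medians. All 10 immediate early factors are lower, the heat shock genes lie on both sides of no change, and the other early factors include 6 genes that are higher.

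Heat shock and chaperone genes, which tissue dissociation is also known to raise, fell at about the share of all genes. Of 24 matched genes 23 were tested, 4 fell (17.4%, against 16.3% of all genes tested) and 1 rose (4.35%, against 16.3%), with a median of 0.21. Their summed TPM was 15832, 14958 and 16527 in lcat OE libraries, against 7783, 15525 and 17464 in CTL libraries. CTL 1 stood apart: 16 of the 24 genes had their lowest TPM of all libraries there. The inducible chaperone gene hsp70l, named after its values were seen, had 4950, 5106 and 5797 TPM in lcat OE libraries, against 1257, 4442 and 5278 TPM in CTL libraries (adjusted p = 0.351 by edgeR). In the same CTL 1 library 6 of the 10 immediate early factors had their lowest TPM of the CTL group and 3 had their highest. On CPM, junba was lowest in CTL 3 instead. No share over all genes is given beside these counts, and a link to the heat shock values was not tested. None of the 10 was lower in CTL 1 than in any lcat OE library, which follows from the separation of the groups given above. Without CTL 1 all 10 factors were still lower, with a median of -1.23, and 5 heat shock genes were higher; 3 were higher without CTL 3 and 2 were lower without lcat OE 3. Those named by p were dnaja1 (-1.07, SE 0.16), hsf2 (-0.65, SE 0.13) and hspa4a (-1.66, SE 0.37), which fell, and hspe1 (0.50, SE 0.11), which rose.

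**Figure D5:**
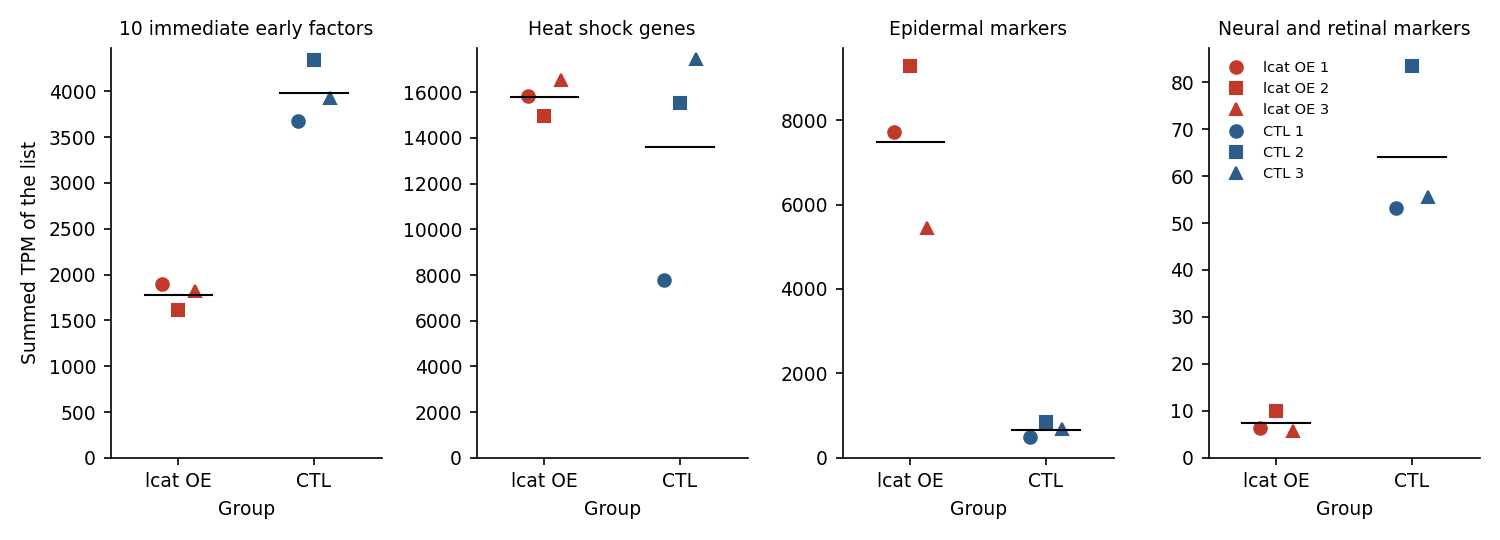
Summed TPM (vertical axes start at 0) of the 10 immediate early factors, the heat shock genes, the epidermal markers and the neural and retinal markers in each lcat OE (red) and CTL (blue) library, with black lines at the group means. The early factors are lower in every lcat OE library, while the heat shock sum is lowest in CTL 1 and between 14958 and 17464 elsewhere.

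Markers of further cell types moved with the groups. Of the xanthophore and pigment markers 12 of 15 fell and 1 rose, with a summed TPM of 33.8 to 37.5 in lcat OE and 103 to 251 in CTL, and aox5 was at 0 in all lcat OE libraries; 7 fell without lcat OE 1 or lcat OE 2. Exocrine pancreas markers had a summed 55.4 to 318.6 TPM in lcat OE and 1034 to 2579 TPM in CTL, and 8 of 18 fell. All 18 were lower with no overlap on CPM, as were 24.1% of all tested genes. The number that fell was 4 without lcat OE 1 or with replicate number as a term, 5 with no filter, 14 without lcat OE 2, 16 by DESeq2 and 18 without the robust fit or by limma. Of the muscle markers 8 of 15 fell (13.2 to 15.7 TPM in lcat OE, 33.0 to 224.5 TPM in CTL). Of the macrophage markers 6 of 9 rose (28.6 to 32.6 TPM in lcat OE, 14.2 to 19.0 TPM in CTL), with csf1rb, c1qb and cxcr3.2 at 0 in all CTL libraries. The part of these cells in the values of the 10 factors was not tested.

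The genes whose course over the 6 libraries was most like the mean standardised log2 CPM of the 10 factors, among 4354 genes outside the lists that reached 10 CPM in a library and have no clone name, were sdc4, proza, n4bp1, plin2, c1qbp and adma. The heparan sulphate proteoglycan gene sdc4 had the highest Pearson correlation, 0.999, with 51.6 to 65.8 CPM in lcat OE libraries and 157 to 200.3 CPM in CTL libraries. The lipid droplet coat gene plin2 had a correlation of 0.997, with 3.57 to 7.57 CPM in lcat OE libraries and 60.2 to 93.5 CPM in CTL libraries. The vasodilator peptide gene adma was at 0.995, with 3.65 to 5.30 CPM in lcat OE libraries and 21.6 to 36.5 CPM in CTL libraries. The points share 1 group difference and the same libraries, and 239 of the 4354 genes had a correlation above 0.95.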

How the data were processed

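The 3 lcat OE and 3 CTL samples were grouped by their titles. Tools named in the submitters' processing notes, without roles, are DESeq2 1.4.5, RSEM 1.3.1, Bowtie2 2.3.4.3 and HISAT, with the build GRCz11. Random primers copied poly(A)-selected RNA, per the labels' protocols; no source used here gives the annotation or a strand-specific step. The authors deposited 1 table with expected counts, TPM and FPKM per library; 6 normalised count columns and 8 averages were not used. All 60 counts of the 10 genes were whole numbers (tolerance 0).

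After rounding, the expected counts went into edgeR 4.0.16 under R 4.3.3 with filterByExpr, TMM factors and a robust two-sided quasi-likelihood test whose model held group alone, with Benjamini-Hochberg adjustment over 14096 genes. The test was also run on simulated data. SE is |log2 fold change| over √F. CPM uses TMM-scaled totals. Alternatives were DESeq2 1.42.0, limma 3.58.1, other scalings and filters, and left-out libraries. Replicates differed by more than sampling noise, at a chi-square of 10.5 to 33.2 for each degree of freedom.

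The 10 genes and all lists were chosen with earlier results of these data known. Of 440 list names, 424 were matched, 23 by a RefSeq name. Named by rule were the 10 genes, up to 4 genes per list by p (at least 1 CPM), up to 2 abundant markers per cell type and the 6 genes most alike; some of these are not reported here.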

Additional observations from a re-analysis of the deposited data

How the results depend on the processing

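All 10 immediate early factors were lower in lcat OE under each of 19 alternatives, and 9 or 10 of them were past the threshold each time. Their median log2 fold change was -1.36 with library totals and lowest on log2(TPM + 0.1), at -1.48, where the medians of all genes were -0.11 and -0.18. It was nearest to no change without lcat OE 2, at -1.145, where the median of all genes was -0.03. The jun value was -0.43 with the replicate block and -0.52 to -0.36 with a library left out, and atf3 was at -1.25 with 2 against 2 libraries. Same-numbered libraries did not deviate together (correlations of -0.05, -0.03 and 0.02), no lcat OE library was most like the CTL library of its number, and the replicate block gave 2040 higher and 2152 lower genes, against 2293 and 2303 without it. Genes higher numbered 1335 with at least 5 CPM in 3 libraries (1369 lower), 1318 on log2(TPM + 1) and 1356 on log2(TPM + 0.1). Of all calls 49.9% were higher, but 38.8% with library totals and, by limma, 39.8% on FPKM and 30.2% or 30.8% on TPM with a pseudocount of 1 or 0.1; the cause was not tested.

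Among the lists, genes that rose were few and changed in number. The AP-1 family and its targets had 0 by limma on log2(TPM + 1) and log2(TPM + 0.1), and the targets 0 on log2(FPKM + 1), against 1 each by edgeR. The other early factors had 3 with at least 5 CPM, the feedback genes 1 with library totals, no filter, limma or 2 against 2 libraries and 1 to 2 with a library left out. The upstream factors had 0 with library totals, either other filter, DESeq2, limma or the replicate block, and 0 to 1 with a library left out; 5 fell with 2 against 2 libraries and 4 to 9 with a library left out. Heat shock genes higher numbered 2 with DESeq2, log2(TPM + 0.1) or the replicate block, 3 on log2(TPM + 1) or log2(FPKM + 1), 4 without the robust fit, 5 with 2 against 2 libraries and 1 to 5 with a library left out, where 2 to 4 were lower. With at least 5 CPM in 3 libraries few markers were left to test: 3 of 3 neural, 4 of 5 xanthophore and 1 of 1 muscle markers fell, 0 of 2 neutrophil and 0 of 1 endothelial markers fell, and 1 of 1 macrophage markers rose. Depth limits egr2b most, with 10 to 23 counts per lcat OE library.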

Other observations

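Markers of the remaining cell types that a liver sort could hold gave the following counts beside the fall of the 10 immediate early factors. Of the biliary markers 2 of 13 tested rose and 5 fell, and their summed TPM was 2203 to 2397 in lcat OE libraries and 3137 to 3384 in CTL libraries; the keratin gene krt18a.1 is on this list and on that of AP-1 or Egr1 targets. Of the stellate cell and fibroblast markers 4 of 17 fell, and 1 fell without CTL 2, without CTL 3 or without lcat OE 1. Of the endothelial markers 2 of 11 rose and 5 fell, with 3 that fell without CTL 2. Of the neutrophil markers 2 of 6 fell, while 1 fell without CTL 2, and 4 fell by DESeq2 or by limma on TPM. Of the intestinal markers 2 of 6 rose and 0 fell, but 2 fell without CTL 1 and 1 without lcat OE 1. Of the erythroid markers 0 of 7 passed by edgeR, where 2 had an unadjusted p under 0.05, while 1 fell by DESeq2 and 2 by limma on TPM or FPKM, and 2 by edgeR without lcat OE 2; gata1a was at 0 in all CTL libraries. Their part in the values of the 10 immediate early factors was not tested.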
